A study of Mus musculus with 96 samples.

Results

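The genes of the epidermal growth factor (EGF) receptor ligands and of the ErbB receptors were followed through the serum response of primary mouse embryonic fibroblasts (MEFs). They are 8 of the 15895 genes in the table, taken by gene symbol: the 5 ligand genes Areg, Ereg, Hbegf, Tgfa and Nrg1 and the 3 receptor genes Egfr, Erbb2 and Erbb3. The set was chosen by the signal after serum relative to the starved libraries, where Areg is among the largest rises, so values relative to starved cells are given as a description with no test. The MEFs came from CF-1 embryos at embryonic day 13 and were held for 36 h in 0.5% fetal calf serum (FCS) before FCS was brought to 20% at 0 h. All groups share this starvation and serum, and no culture was followed without serum after 0 h. RNA was sequenced in 2 time courses, and the libraries analysed here are those of Cycle 1 (63 libraries, the last at 38 h) and Cycle 2 (32 libraries, the last at 27 h), both starting at -1 h, with 1 library for each time in a Cycle. A further library of Cycle 1 was not analysed here. The 4 starved libraries at -1 h and 0 h are the baseline, and 29 hours after serum are present in both Cycles.

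The ErbB receptors are receptor tyrosine kinases of the cell surface. A bound ligand makes a receptor pair with itself or with another member, and the pair signals through Ras and ERK and through PI3-kinase. Erbb2 has no known ligand and serves as a partner, while Erbb3 has little kinase activity of its own. The ligands are made as membrane proteins that ADAM proteases can release, and in fibroblasts several of them are themselves induced by growth factors.

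Values are a normalized signal, in which the authors scaled all libraries to the same total of reads, and they are not divided by gene length. Whole reads recovered from the steps of the values gave 4352437 to 12551592 reads on the listed genes per library, with a median of 9374769. Egfr is an average over transcripts, and its values were whole reads in 45 of 95 libraries. The summed signal of 10 fibroblast markers was 403611 to 569390 in the starved libraries and 176950 to 237970 at 16 to 21 h, and none of these genes was at 0. The 24.5 h library of Cycle 1 stood apart from its neighbour, with 13.3% of 12371 genes below 0.5 of their 24 h value, and in the 0.5 h library of Cycle 2 macrophage markers summed to 726.5 against 3682 to 4782 at 1 to 3 h. Neither time is shared by the Cycles, so neither library enters a test.

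The positions are those of NCBIM37, the mm9 build the authors aligned to, with GENCODE vM1 gene models. Ereg (91503643 to 91522675) and Areg (91568641 to 91577458) are neighbours on the plus strand of chromosome 5, 45965 bases apart, between the ligand genes Epgn (91456490 to 91464241, plus strand) and Btc (91786287 to 91831939, minus strand). Tgfa lies on chromosome 6 (86145420 to 86225151, plus strand) and Nrg1 on chromosome 8 (32928500 to 33119581, minus strand). Egfr (16652206 to 16818161) and Erbb2 (98273784 to 98299030) are on the plus strand of chromosome 11, and Erbb3 (128004579 to 128026708) is on the minus strand of chromosome 10. Reads were counted over exons on both strands together, so antisense RNA over an exon cannot be told apart from the gene.

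RefSeq promoter sequences (GRCm38.p6) were matched for 4 of the 8 genes, Areg, Tgfa, Egfr and Erbb2, and not for Ereg, Hbegf, Nrg1 and Erbb3. The 250 bases before the start of Areg and of Tgfa are shown because both ligand genes rose after serum and fell again, over very different ranges. They are chr5:91139349-91139598 and chr6:86194972-86195221 of GRCm38.p6, plus strand. Capitals mark matches on either strand to the cyclic AMP response element (TGACGTCA), the GC box (GGGCGG) and the TATA box (TATAAA). The AP-1 element (TGANTCA), the Egr1 element (GCGNGGGCG) and the CArG box of serum response factor were also searched on both strands and gave no match in either.
Areg: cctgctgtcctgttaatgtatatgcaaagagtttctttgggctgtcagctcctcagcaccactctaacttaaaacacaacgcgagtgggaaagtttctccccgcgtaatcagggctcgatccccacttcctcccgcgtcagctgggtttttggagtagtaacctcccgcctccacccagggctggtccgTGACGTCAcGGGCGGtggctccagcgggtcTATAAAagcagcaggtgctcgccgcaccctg
Tgfa: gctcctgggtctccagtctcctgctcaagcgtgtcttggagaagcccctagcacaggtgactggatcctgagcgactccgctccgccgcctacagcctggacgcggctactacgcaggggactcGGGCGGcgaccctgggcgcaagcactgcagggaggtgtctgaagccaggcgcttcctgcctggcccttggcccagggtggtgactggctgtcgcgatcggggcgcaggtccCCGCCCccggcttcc
In Areg the cyclic AMP response element lay 61 to 54 bases before the start, the GC box 52 to 47 and the TATA box 31 to 26. Tgfa had 2 GC boxes, Egfr had 1, and Erbb2 had no match. Of 32851 promoters of this length, 1.55% held the cyclic AMP response element, 32.7% the GC box, 12.4% the TATA box, 6.75% the AP-1 element, 4.7% the Egr1 element and 1.47% the CArG box. A match describes the letters of this window and is not a mapped site.

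Areg (amphiregulin), a ligand of Egfr, was barely detected in starved cells. Its signal was 3.01 at -1 h and 7.29 at 0 h in Cycle 1, and 1.91 and 6.59 in Cycle 2, which are 2 and 8 reads in each Cycle. At 1, 2 and 3 h after serum it was 122, 855 and 1275 in Cycle 1, where its maximum was 1391 (5.5 h). In Cycle 2 it was 12.0, 277 and 639.8 at 0.5, 2 and 3 h, and its maximum was 801.5 (4 h). Every library from 1 h to 15 h lay above both starved libraries of its Cycle. The highest signal was 270.1 times the starved mean in Cycle 1 (95% counting interval 132.9 to 512.2) and 188.6 times in Cycle 2 (97.6 to 380.8). These folds depend on the few starved reads, and intervals here cover counting error only. With the -1 h library alone as baseline they were 462.7 and 420.1, and with the 0 h library alone 190.7 and 121.6.

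The fall of Areg spanned the next hours. Its median signal was 812 over 4 to 9 h, 59.0 over 10 to 15 h and 14.4 over 16 to 21 h in Cycle 1, and 355, 25.4 and 7.97 in Cycle 2. The 10 to 15 h libraries lay below all 4 to 9 h libraries in both Cycles, a log2 change of -3.36 in Cycle 1 and -3.81 in Cycle 2, which was not tested because the early rise chose Areg. From 10-15 h to 16-21 h Areg fell by 1.67 on the log2 scale (SE 0.371, adjusted p = 0.00299 from limma over all genes), with -2.07 in Cycle 1 and -1.27 in Cycle 2. With 1 mean per Cycle and window in place of hourly libraries, the adjusted p was 0.153. The 10 to 15 h mean was still 13.9 and 5.63 times the starved mean in Cycles 1 and 2. This fall thus belongs to the return from the rise that chose Areg, and nothing further is read from its p-value. In bulk samples fewer cells with a transcript and less of it per cell cannot be told apart.

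Ereg (epiregulin), which binds Egfr and Erbb4, rose in 2 steps. In Cycle 1 its signal was 43.6 at -1 h and 440.4 at 0 h, peaked a first time with 3916 (1.5 h), dipped to 2696 (3 h) and reached its maximum of 7511 (6.5 h). In Cycle 2 it was 141.2 at -1 h and 1533 at 0 h, reached its maximum of 8993 (1.5 h), dipped to 5921 (3 h) and climbed again to 7537 (6 h). The later maximum was the higher of the pair in Cycle 1 and the earlier one in Cycle 2. The highest signal was 31.0 and 10.7 times the starved mean in Cycles 1 and 2, 172.3 and 63.7 times the -1 h library alone, and 17.1 and 5.87 times the 0 h library alone. From 4-9 h to 10-15 h Ereg fell by 1.60 on the log2 scale (SE 0.195, adjusted p = 1.44e-07 from limma), with -1.42 in Cycle 1 and -1.79 in Cycle 2. With 1 mean per Cycle and window the adjusted p was 0.0602. Later it held a plateau, with medians of 1240.0 and 1026 over 16 to 21 h in Cycles 1 and 2 and of 1121 and 1134 over 22 to 27 h. Within these hours Ereg was 1170.2 at 24 h and 342 in the 24.5 h library of Cycle 1 that stood apart, while Hbegf was 1427 and 1533.

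Hbegf (heparin-binding EGF-like growth factor), a ligand of Egfr and Erbb4, rose early to a single maximum. The gene lies on the minus strand of chromosome 18 (36664583 to 36675459). Its signal in Cycle 1 was 162.3, 400.3 and 7144 at -1, 0 and 1 h, with a maximum of 12811 (2 h). In Cycle 2 it was 280.4, 737.5, 1750.3 and 3416 at -1, 0, 0.5 and 1 h, with a maximum of 8574 (2.5 h). The maxima were 45.5 and 16.8 times the starved mean, and 78.9 and 30.6 times the -1 h library alone. The log2 change from 1-3 h to 4-9 h was -0.77 (SE 0.184, adjusted p = 0.000695 from limma), under the size of 1 required here. From 4-9 h to 10-15 h Hbegf fell by 1.00 (SE 0.175, adjusted p = 3.71e-05 from limma), and the later libraries lay below all earlier ones in both Cycles. This change sits on the size limit, and the call was lost with a pseudocount of 10. The call was also lost in 12 of 24 fits that left out 1 library (up to -0.93). The libraries left out were each of Cycle 1 from 4 to 9 h and each of Cycle 2 from 10 to 15 h. At 22 to 27 h the median was 1499 in Cycle 1 and 1536 in Cycle 2, 5.33 and 3.02 times the starved mean.

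Tgfa (transforming growth factor alpha), another ligand of Egfr, passed 2 times its starved mean in both Cycles but reached different levels. In Cycle 1 the signal was 7.51, 12.8, 36.1 and 106.5 at -1, 0, 2 and 3 h, with a maximum of 147.1 (3.5 h). In Cycle 2 it was 9.54, 8.24, 9.51 and 25.0 at these hours, with a maximum of 27.9 (5 h). The highest fold was 14.5 (95% counting interval 8.49 to 23.2) in Cycle 1 and 3.14 (1.68 to 5.99) in Cycle 2. From 1-3 h to 4-9 h Tgfa rose by 1.05 (SE 0.429, adjusted p = 0.0377 from limma), with 1.04 in Cycle 1 and 1.06 in Cycle 2. The call was lost with a pseudocount of 10 (0.72), TMM rescaling (0.97), edgeR (0.975) or 1 mean per Cycle and window (adjusted p = 0.109), and in 11 of 22 fits without 1 library, each of Cycle 1 from 4 to 9 h and each of Cycle 2 from 1 to 3 h (down to 0.77). From 4-9 h to 10-15 h it fell by 1.20 (SE 0.409, adjusted p = 0.0204 from limma), with -1.81 in Cycle 1 and -0.59 in Cycle 2. That call was lost with a pseudocount of 10 (-0.94), with 1 mean per Cycle and window (adjusted p = 0.145) and without the 4, 5, 6, 7 or 8 h library of Cycle 1.

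Nrg1 (neuregulin 1), a ligand of Erbb3 and Erbb4, rose less over its starved mean than the ligands of Egfr in both Cycles. It was present before serum, with 123.2 at -1 h and 144.1 at 0 h in Cycle 1 and 187.0 and 169.8 in Cycle 2. An early maximum of 206 in Cycle 1 and 272.2 in Cycle 2, both at 2 h, stayed under 2 times the starved mean. From 1-3 h to 4-9 h Nrg1 fell by 1.02 on the log2 scale (SE 0.175, adjusted p = 1e-05 from limma), with -1.25 in Cycle 1 and -0.79 in Cycle 2, and all 4 to 9 h libraries lay below all 1 to 3 h libraries of their Cycle. The size was near the limit: it was -0.95 with a pseudocount of 10, and the call was lost in 11 of 22 fits without 1 library, each of Cycle 1 from 4 to 9 h and each of Cycle 2 from 1 to 3 h (up to -0.92). The lowest value in Cycle 1 was 43.6 at 5.5 h, 0.326 of the starved mean. The highest in Cycle 1 came late, with 220.1 at 37 h. The likeness to the ligands of Egfr differed between the Cycles. The Pearson r of Nrg1 on log2(signal + 1) with Areg, Ereg, Hbegf and Tgfa was -0.283, -0.519, -0.332 and -0.278 in Cycle 1. In Cycle 2 it was 0.579, 0.591, 0.546 and 0.119.

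**Figure D1:**
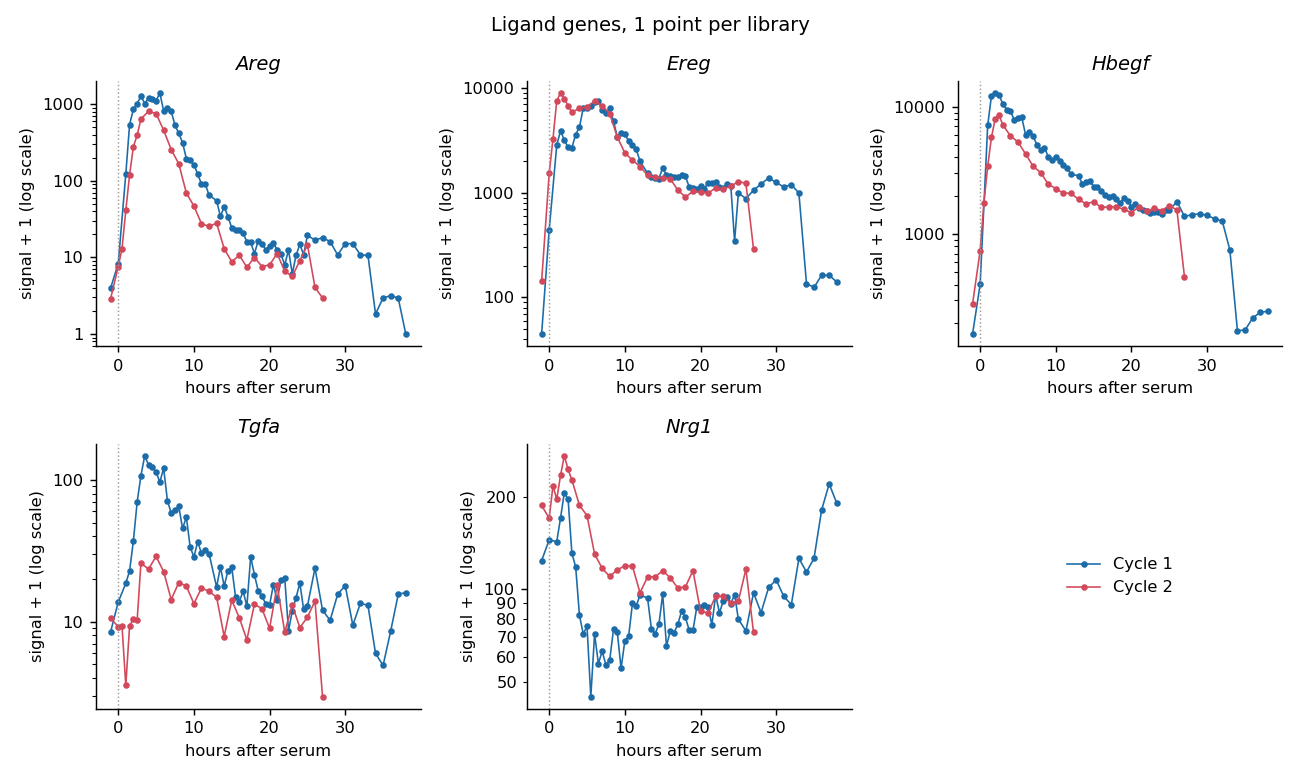
Normalized signal plus 1 (log axis) of the 5 ligand genes against hours after serum, 1 point per library, blue for Cycle 1 and red for Cycle 2. Areg peaks at 1391 in Cycle 1 and 801.5 in Cycle 2 and returns to a few reads, Ereg and Hbegf hold a plateau before a late drop, and Nrg1 has its lowest Cycle 1 value at 5.5 h.

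Levels can be set side by side per kilobase of the longest coding transcript. On that scale the highest levels were 5399 in Cycle 1 and 3613 in Cycle 2 for Hbegf, 1816 and 2174 for Ereg, and 1160.1 and 668.5 for Areg. Those of Nrg1 (104.7 and 129.4) and Tgfa (39.1 and 7.42) were lower in both Cycles. The starved levels per kilobase were 89.3 and 69.5 for Egfr, 94.7 and 73.3 for Erbb2, and 4.75 and 4.195 for Erbb3. Egfr and Erbb2 are not separated in this order, because the 2 starved libraries of Cycle 1 alone gave Egfr signals of 789.8 and 1033.5 before division by length. The Egfr signal is also an average over transcripts, and it was divided by the length of the longest.

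Egfr, the receptor of Areg, Ereg, Hbegf and Tgfa, was expressed in starved cells and lower at 10 to 15 h than at 4 to 9 h. Its signal was 789.8 at -1 h and 1033.5 at 0 h in Cycle 1 and 690.2 and 728.5 in Cycle 2. Over 1 to 3 h it was 800.1 to 989.5 in Cycle 1, and in Cycle 2 it went from 755 at 1 h to 1444 at 3 h, 2.04 times the starved mean. All 10 to 15 h libraries lay below all 4 to 9 h libraries of their Cycle, a log2 change of -0.66 (SE 0.172, adjusted p = 0.00297 from limma) that is under the required size. Against the starved mean the 10 to 15 h mean was 0.487 in Cycle 1 and 0.926 in Cycle 2, where the 11 h library (756.1) was above both starved ones. At 22 to 27 h the median was 371 in Cycle 1 and 582 in Cycle 2. Egfr was below 0.5 of the starved mean in 35 of 61 libraries after serum in Cycle 1 and in 0 of 30 in Cycle 2.

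Erbb2, the receptor without a known ligand, was lowest in the first hours. In Cycle 1 its signal was 476.4, 472.3, 413.5, 265.8 and 367 at -1, 0, 1, 2 and 3 h. In Cycle 2 it was 371.1, 363.4, 303, 278 and 316 at these hours and lowest with 265.9 (2.5 h). The lowest values were 0.560 and 0.724 of the starved mean, or 0.701 and 0.854 with TMM rescaling, which moved the median log2 change of 12804 genes from starved to 1-3 h from -0.26 to -0.03. The log2 change from 1-3 h to 4-9 h was 0.36 (SE 0.073, adjusted p = 9.61e-05 from limma) and from 4-9 h to 10-15 h 0.20 (SE 0.07, adjusted p = 0.0254 from limma), both under the required size. The highest value of Cycle 1, 756 at 24.5 h, belongs to the library that stood apart.

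Erbb3, a receptor of neuregulins, was scarce and lower after serum. Its signal was 22.6 at -1 h and 34.6 at 0 h in Cycle 1 and 25.8 and 24.7 in Cycle 2, from 15, 38, 27 and 30 reads. It was 12.2 to 21.9 over 1 to 3 h in Cycle 1 and 12.0 to 21.6 in Cycle 2, and the medians over 16 to 21 h were 5.76 and 5.89. The lowest library, at 27 h of Cycle 1, held 1 read, 0.0351 of the starved mean (95% counting interval 0.00083 to 0.194). Log2 changes between windows ran from -0.55 to 0.12 and none was called. Erbb3 is known from Schwann cells, and 5 Schwann and glial markers summed to 150.0 to 198.4 in starved cells and 81.8 to 112.7 at 16 to 21 h in Cycle 1, and to 114.1 to 122.1 and 75.4 to 99.4 in Cycle 2. Of these 5, 4 were below 0.5 of starved at the same hour in both Cycles, where 42.7% of all genes were. Sox10, a defining marker, was at 0 in no library and was the marker outside these 4. Its lowest signal was 0.283 of its starved mean in Cycle 1 and 0.611 in Cycle 2. The part of these cells in the values of Erbb3 was not tested.

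**Figure D2:**
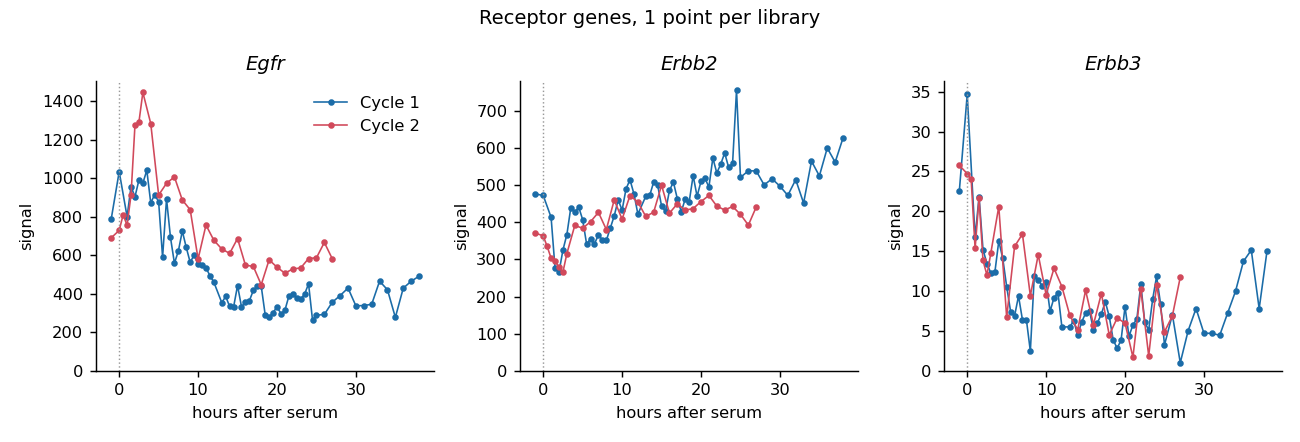
Normalized signal (linear axis from 0) of the 3 receptor genes against hours after serum, 1 point per library, blue for Cycle 1 and red for Cycle 2. Egfr is lower at 10 to 15 h than at 4 to 9 h, Erbb2 is lowest at 2 h (Cycle 1) and 2.5 h (Cycle 2), and Erbb3 has medians of 5.76 and 5.89 at 16 to 21 h.

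Against starved cells, Hbegf was above 2-fold in both Cycles at 28 of the 29 shared hours, Areg at 19, Ereg at 14 and Tgfa at 5. These are 4 of the 8 genes, where 13.5% of 15587 genes were above 2-fold at some shared hour in both Cycles. Erbb3 was below 0.5 at 20 shared hours, where 42.7% of genes were below it at some hour. Nrg1, Egfr and Erbb2 passed neither limit in both Cycles. Nothing is read from these counts, because this contrast chose the genes.

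Successive windows of hours were compared with limma on log2(signal + 1), with the 2 Cycles as replicates of each hour. A gene was called at a Benjamini-Hochberg adjusted p under 0.05 over all 15895 genes and a log2 change over 1 in size. From 1-3 h to 4-9 h, 1 of 7 tested genes was called higher (Tgfa) and 1 lower (Nrg1), where 5.18% of all genes were higher and 7.76% lower. From 4-9 h to 10-15 h, 3 of 7 were called lower (Ereg, Hbegf and Tgfa), where 2.84% of all genes were, and 0 higher, where 2.11% were. The median log2 change of the 7 was -0.66, against 0.06 over all genes. Ereg, Hbegf and Tgfa were then falling from rises over starved cells, the contrast that chose the set. Nothing is therefore read from this count, this median or the p-values of these falls. The same holds for the earlier call of Tgfa. From 10-15 h to 16-21 h, 1 of 8 was called lower (Areg), where 0.837% were, and 0 higher, where 0.623% were. Areg was then still falling from the rise that chose it, so nothing is read from this count. From 16-21 h to 22-27 h limma and edgeR each called 0 of 8, and 0 had an unadjusted p under 0.05, where 0.113% of all genes were called lower and 0.00629% higher. Neighbouring hours of a Cycle come from the same time course, so these p-values measure the spread between the Cycles. With 1 mean per Cycle and window, 1, 1, 0 and 0 members were called, which leaves Nrg1 and Hbegf.

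**Figure D3:**
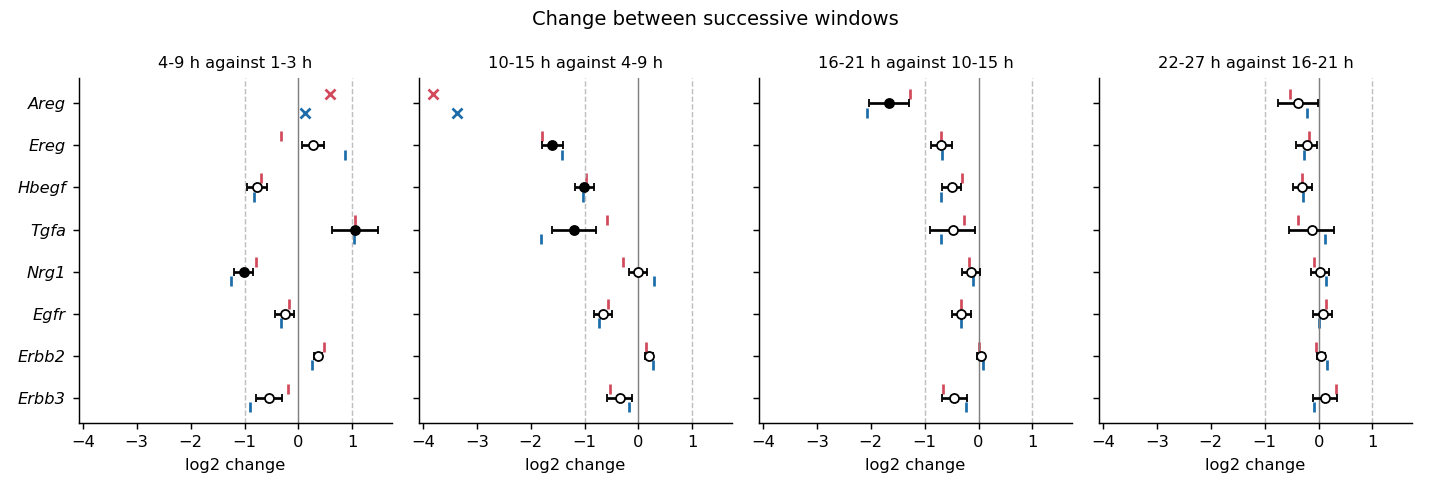
Log2 change of each gene between successive windows, with circles and standard error bars from limma (filled where called), ticks for Cycle 1 (blue) and Cycle 2 (red), and dashed lines at -1 and 1. Crosses mark Areg where it was not tested, at -3.36 and -3.81 from 4-9 h to 10-15 h.

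The 2 starved times were also set side by side after their values were seen. No test result is given for the members, since both times are the baseline that chose them. From -1 h to 0 h the signal of Ereg was 10.1 times higher in Cycle 1 and 10.9 times in Cycle 2, and that of Hbegf 2.47 and 2.63 times. Areg went from 2 to 8 reads in each Cycle. The log2 changes of the other genes, averaged over the Cycles, were -0.02 to 0.27. Of 10 targets of ERK signalling, limma called 2 higher, the immediate early genes Egr1 (3.22, adjusted p = 0.000469) and Ier3 (2.46, adjusted p = 3.03e-06), where 0.34% of all genes were called higher and 0.0503% lower.

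The last libraries of each Cycle held a further drop of Ereg and Hbegf. From 33 h to 34 h of Cycle 1 Ereg went from 993.9 to 134.6 and Hbegf from 748.2 to 172.8, while 0.974% of 12419 genes fell below 0.5. At 34 to 38 h Ereg was 123.4 to 162.2, Hbegf 172.8 to 244.9 and Areg 0 to 2.16, where 0 reads at 38 h allow a signal of up to 5.65 (3 reads). At 28 to 33 h they had been 993.9 to 1388, 748.2 to 1440.3 and 9.64 to 15.1. The windows did not overlap for these 3 ligands, and the means (1 added) were 8.25-fold lower for Ereg, 5.99-fold for Hbegf and 5.50-fold for Areg. Of all genes 1.08% fell and 2.84% rose past 2-fold without overlap. The window was described after its values were seen, in 1 time course and with no test.

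The 27 h library of Cycle 2, its last, had a like step. From 26 h to 27 h Ereg went from 1231 to 290.7 and Hbegf from 1546.0 to 461, while 1.03% of 12471 genes fell below 0.5. At the same hour of Cycle 1 Ereg went from 880.2 to 1056 and Hbegf from 1797 to 1374. The receptors had ratios at the late steps of 0.904 and 0.874 (Egfr), 1.25 and 1.13 (Erbb2) and 1.38 and 1.71 (Erbb3) in Cycles 1 and 2. The mean of Erbb3 was 2.00 times higher at 34 to 38 h than at 28 to 33 h, with overlap. Of the 10 ERK targets, 8 fell past 2-fold without overlap at 34 to 38 h, among them Fosl1, an AP-1 subunit (mean 997 to 208.5), Ier3 (941 to 223) and Egr1 (734 to 179). Epithelial markers summed to 96.4 to 133.7 before and 44.8 to 109.7 after, and macrophage markers to 537 to 716 and 499 to 648, and their part in the drop was not tested.

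**Figure D4:**
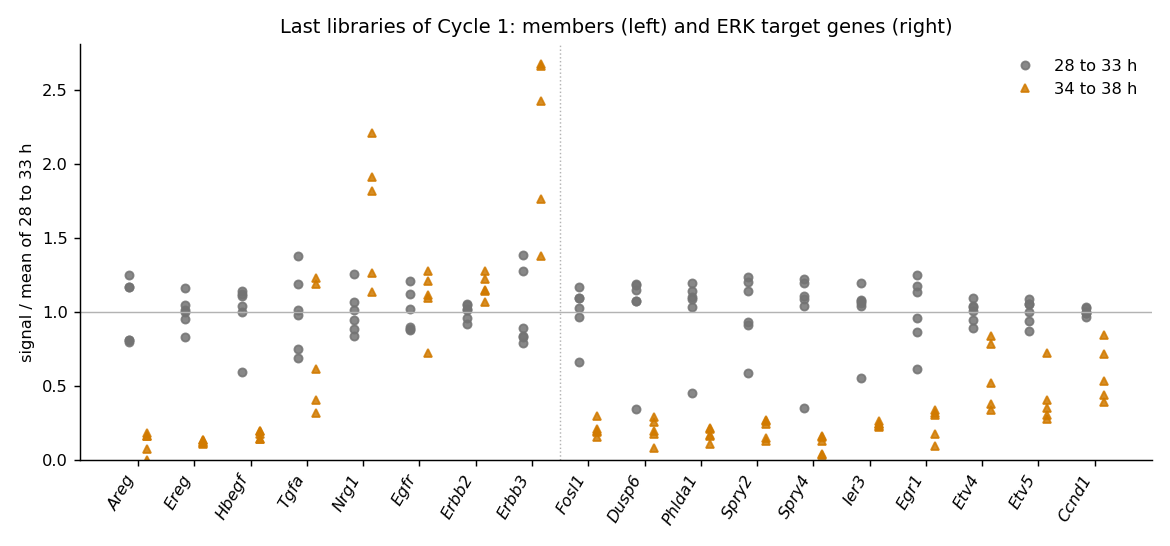
Signal of each library from 28 to 38 h of Cycle 1 divided by the mean of 28 to 33 h, circles for 28 to 33 h and triangles for 34 to 38 h, for the 8 genes and 10 ERK targets. The triangles of Areg, Ereg, Hbegf and all 10 ERK targets lie below all of their circles, and for 8 of these targets the means differ by more than 2-fold.

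The neighbouring ligand genes had their highest libraries at 7 to 8 h. Of 7 further family genes 5 were in the table, and 2 of these, Btc (betacellulin) and Epgn (epigen), were called higher from 1-3 h to 4-9 h and lower from 4-9 h to 10-15 h. Over all genes 5.18% were called higher in the first of these comparisons and 2.84% lower in the second. Btc had a starved mean of 21.5 and its highest signal of 219.3 at 8 h in Cycle 1, and 15.6 and 137.2 at 7 h in Cycle 2. Its log2 changes were 1.93 (adjusted p = 1.71e-08 from limma), -1.99 (adjusted p = 2.12e-08 from limma) and, to 16-21 h, -1.26 (adjusted p = 0.000229 from limma). Epgn stayed low, with maxima of 21.3 and 15.2 at 7 h and changes of 1.45 and -1.47. The p-values of genes of this and the next lists take hourly libraries as independent, although those of a Cycle share a time course. The highest libraries of the 4 ligand genes within 375450 bases of chromosome 5 were, for Ereg, at 6.5 h and 1.5 h in Cycles 1 and 2. They were at 5.5 h and 4 h for Areg, at 7 h in both for Epgn and at 8 h and 7 h for Btc. Each maximum is 1 library, and Ereg in Cycle 1 was 7395 at 6 h and 7511 at 6.5 h. Close hours are therefore not put in order.

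Of 10 genes for the release of ligands, 0 were called higher and 1 lower from 1-3 h to 4-9 h, Rhbdf2, a partner of the sheddase Adam17 (-1.28, adjusted p = 1.02e-06 from limma), where 5.18% of all genes were higher and 7.76% lower. Over starved cells 2 of the 10 passed 2-fold in both Cycles, where 13.5% of all genes did, the metalloprotease Adam19 (4.50 and 2.65 times at its highest) and the tetraspanin Cd9 (3.27 and 2.24 times). Adam17 itself, named after its values were seen, ranged from 0.506 to 0.942 of its starved mean in Cycle 1 and from 0.634 to 1.02 in Cycle 2. Of 12 adaptors and effectors 1 was called lower, the docking protein Gab1 (-1.22, adjusted p = 2.6e-13 from limma), near the 7.76% of all genes, and the median log2 change of the 12 was 0.09, against 0.04 over all genes.

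Of 11 inhibitors and ubiquitin ligases of the receptors, 6 passed 2-fold over starved cells in both Cycles, where 13.5% of all genes did, and 3 were below 0.5, where 42.7% were. Errfi1 (Mig6), which binds and blocks the kinase domain, went from a starved mean of 932 to 17118 at 2 h in Cycle 1 and from 1898 to 13187 at 2 h in Cycle 2. It fell by 1.24 on the log2 scale from 4-9 h to 10-15 h (adjusted p = 2.63e-06 from limma). Cblb, a ubiquitin ligase, reached 3.13 and 4.31 times its starved mean. From 1-3 h to 4-9 h the membrane proteins Lrig3 (-1.02, adjusted p = 9.44e-09 from limma) and Lrig1 (-1.01, adjusted p = 9.38e-14 from limma) were called lower, where 7.76% of all genes were.

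Of the 10 ERK targets, 7 passed 2-fold over starved cells in both Cycles, where 13.5% of all genes did, and 1, Egr1, was below 0.5, where 42.7% were. The starved mean of Egr1 rests on the 0 h library. Egr1 was 3404 at -1 h and 28363 at 0 h in Cycle 1, and 1760 and 18343 in Cycle 2. After serum its highest signals were 22740 (1 h) and 21898 (0.5 h), above the -1 h library in both Cycles. Fosl1 reached 61.0 times its starved mean at 2.5 h in Cycle 1 and 10.6 times at 3 h in Cycle 2. From 1-3 h to 4-9 h Etv4 was called higher (1.36, adjusted p = 2.81e-07 from limma), and Egr1 (-2.46, adjusted p = 1.44e-10 from limma) and Dusp6 (-1.17, adjusted p = 3.25e-05 from limma) lower. Over all genes 5.18% were called higher there and 7.76% lower. The gene lists were chosen with earlier results of these data known, so nothing is read from these counts or those of the other lists.

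The genes most like each member were found by the lower of the Pearson r in Cycle 1 (63 libraries) and Cycle 2 (32 libraries) on log2(signal + 1), among genes with a mean of at least 10. The libraries of a Cycle share a time course, so these values are descriptions. For Areg they were Sphk1 (0.98 and 0.984 in Cycles 1 and 2), Smox (0.967 and 0.963) and Sema7a (0.975 and 0.955). For Ereg they were the receptor inhibitor Errfi1 (0.927 and 0.929), Hbegf (0.925 and 0.922) and Ptgs2 (0.964 and 0.899). Hbegf was nearest to Pxdc1 (0.966 and 0.97), Dusp5 and Gprc5a, and Tgfa to Lrrc8a (0.851 and 0.831), Sh3yl1 and Lbh. Nrg1 was nearest to Lgr5, Ptx3 (0.827 and 0.895) and Tgfbr3. Among the receptors, Egfr was nearest to Pxdn (0.965 and 0.949), Col6a3 and Hivep2, Erbb2 to Arhgef17 (0.872 and 0.887), Zfp687 and Polrmt, and Erbb3 to Hmcn1 (0.773 and 0.773), Plekhh2 and Zc3hav1. Between members, Erbb2 ran opposite to Areg (-0.795 and -0.502) and to Egfr (-0.674 and -0.675) in both Cycles, and Ereg and Nrg1 had r of -0.519 in Cycle 1 and 0.591 in Cycle 2. All these r are on the deposited scale, without TMM rescaling, and include the starved libraries and the rise that chose Areg.

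The Cycles differed in level. Areg was higher in Cycle 1 at 29 of the 29 shared hours, by a median of 2.15-fold, Tgfa at 27 hours (2.13-fold) and Hbegf at 25 (1.45-fold). Egfr was higher in Cycle 2 at 27 hours, by a median of 1.47-fold, and Nrg1 at 25 (1.33-fold). Ereg was higher in Cycle 1 at 17 hours and in Cycle 2 at 12. Each Cycle is 1 time course, so these differences have no test. Markers of some other cells also differed between the Cycles: at 4 to 9 h 7 epithelial markers summed to 420.5 to 767.4 in Cycle 1 and 219.1 to 331.6 in Cycle 2, and 6 macrophage markers to 1021 to 1425 and 3140.3 to 4573. Skeletal muscle markers summed to 432.1 to 688.6 and 695.7 to 1109.8. The sums overlapped for endothelial markers (162.8 to 266.5 and 145.5 to 234.1) and for Schwann and glial markers (104.1 to 134.1 and 123.8 to 147.9). The epithelial sum was 373.8 to 402.8 and 160.3 to 168.1 in the starved libraries. Krt18 was the largest part of it, with up to 440.8 in Cycle 1, while the defining marker Epcam was at most 38.1 there after serum and 9.59 in Cycle 2. The part of these cells in the levels of the ligands was not tested.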

How the data were processed

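RNA was extracted with Trizol, and polyA RNA was made into stranded libraries and read as 50-base single ends. The authors demultiplexed with CASAVA, aligned with STAR to mm9 and counted exons with HOMER, and the deposited signal per gene is scaled to the same total of reads in each library. Of 96 columns of values 95 matched a library, and 1 did not and was not used. Whole reads were recovered from the steps of the signal (94.2% to 96.2% of low values whole within 0.1 read), and 95% counting intervals cover counting error only.

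Members and gene lists were chosen with earlier results of these data known. Windows of the 29 shared hours (58 libraries) were compared on log2(signal + 1) by limma 3.58.1 (R 4.3.3), with each hour a group of 2 libraries, Benjamini-Hochberg adjustment and a two-sided test, checked on simulated data. The simulated libraries were independent of one another, so that check does not cover the pairing of libraries by Cycle given below. The comparison of 0 h with -1 h, and 34 to 38 h with 28 to 33 h, were added after the data were seen. Alternatives were a pseudocount of 10, a mean of at least 10, TMM rescaling, a variance trend, the Cycle as a replicate block, 1 mean per Cycle and window, edgeR 4.0.16 on recovered reads, and leaving out each library. The Cycle number marks the time course and so pairs libraries: deviations of 406 pairs of hours over 9112 genes correlated with a median of 0.471 (-0.198 to 0.91), and 365 were over 0.1. Nothing states that the Cycles came from separate embryos, so p-values measure the spread between these libraries.

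Named genes are the members, at most 4 genes of a list by size of change among those called or past 2-fold in both Cycles, and the 3 genes most like each member. Lrig1, Ier3, Dusp6 and Adam17 were named after their values were seen. Figures and descriptions were made with Python 3.11.15. The values of 1 marker gene are not reported here.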

Additional observations from a re-analysis of the deposited data

How the results depend on the processing

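The log2 changes of the members gave 262 values under the alternatives, of which 249 kept their direction and side of the threshold, 11 lost a call and 2 changed sign. The 2 were Erbb2 from -1 h to 0 h, at -0.02 as reported, 0.023 with TMM rescaling and 0.024 with edgeR. Lost calls between windows stand beside each gene above. The 262 values include the change from -1 h to 0 h, the baseline that chose the members, so nothing is read from their calls there. With a pseudocount of 10 the number of genes called was 979, 386, 113 and 4 in the 4 window comparisons in order of time, against 2058, 788, 232 and 19, and the share called higher from 10-15 h to 16-21 h was 68.1% against 42.7%. With 1 mean per Cycle and window, with the Cycle as a replicate block, it was 418, 0 and 0 in the last 3 (1736 and 795 genes with an unadjusted p under 0.05 in the last 2) and 95 for 0 h against -1 h (62 as reported). With the Cycle as a replicate block on hourly libraries it was 37 from 16-21 h to 22-27 h, and edgeR called 12 there. The block on hourly libraries changed no call of a member. Past 4-fold in place of 2-fold over starved cells, 3603 genes remained of 8121. Without 1 library the counts were 1896 to 2241, 724 to 894, 162 to 289, 11 to 30 and, for 0 h against -1 h, 38 to 67. Small changes crossed 0 when 1 library was left out: Nrg1 from 4-9 h to 10-15 h (-0.105 to 0.095), from 16-21 h to 22-27 h Tgfa (-0.3 to 0.038), Nrg1 (-0.034 to 0.078), Egfr (-0.022 to 0.176) and Erbb3 (-0.101 to 0.344), and from -1 h to 0 h Tgfa (-0.036 to 0.539), Nrg1 (-0.256 to 0.341), Egfr (-0.019 to 0.485) and Erbb2 (-0.21 to 0.167). The cause was not tested. Starved reads limit the folds of Areg, which were 92.5 and 57.0 with 10 added to both values, and of Erbb3.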
